A study of Mus musculus with 9 samples.

Results

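H3K27 acetylation was compared at 10 genes of the canonical Wnt pathway and of the Tcf/Lef family's close relatives in naïve CD8+ T cells with and without Tcf1 and Lef1. The 10 genes were fixed by name as Axin2, Nkd1, Myc, Ctnnb1, Apc, Tcf7l1, Tcf7l2, Tle1, Tle3 and Tle4, out of 22367 protein-coding genes in the mouse annotation used. All 10 had called islands in both genotypes. WT mice carried hCD2-Cre, a Rosa26 GFP allele and Tcf7+/+ Lef1+/+, and dKO mice carried the same Cre and GFP alleles with Tcf7 fl/fl Lef1 fl/fl, all on a C57BL/6 background, of both sexes and 6 to 12 weeks old. The hCD2-Cre transgene acts mostly in mature peripheral T cells, and GFP marks the cells in which Cre was active. GFP+ TCRbeta+ CD62Lhi CD44lo-med CD8+ cells were sorted from the spleen, and chromatin was immunoprecipitated with an antibody to acetylated H3K27, a histone mark found at active promoters and enhancers. The WT group held 4 libraries and the dKO group 3, with 1 input each, and the authors pooled the libraries of a genotype before calling islands, which are stretches of enriched 200 bp windows. One island list per genotype was therefore analysed, no spread between mice could be measured, and the differences below compare 2 lists without a replicate test.

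In the absence of a Wnt signal, a destruction complex built on Axin and Apc marks β-catenin (encoded by Ctnnb1) for degradation. When the signal holds that complex back, β-catenin enters the nucleus and binds Tcf/Lef proteins, which otherwise sit on DNA with the Groucho/TLE corepressors. Tcf1 and Lef1 are the family's members known for T cells, and Tcf7l1 (Tcf3) and Tcf7l2 (Tcf4) are the remaining 2 mammalian paralogs. Axin2 and Nkd1 are negative feedback genes that the pathway turns on, and Myc is among its best known targets in the intestine. The comparisons asked whether acetylation was higher at the paralogs when Tcf1 and Lef1 were deleted and lower at the targets.

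The sequence letters that Tcf/Lef proteins favour, CTTTGAT and CTTTGTT, were searched on both strands of the mm9 genome under the islands. The stretches below are a selection from islands described in the results and were chosen after the island values were seen. Matches in islands called in dKO alone are not printed. Each line runs 5′ to 3′ on the named strand with the matching letters in capitals and 11 bases on either side. At Axin2, on chromosome 11, the island over the start of the gene held 6 matches in WT, all of them CTTTGAT. All 6 also lay under the dKO island. The match 0.08 kb from the start site lay in an exon, and the other 5 lay in introns.
Axin2 +0.08 kb, chr11:108781730-108781758, plus strand: agccggctgcgCTTTGATaaggtcctggc
Axin2 +0.89 kb, chr11:108782535-108782563, plus strand: cggccggcgcgCTTTGATgtgcggggcgg
Axin2 +2.07 kb, chr11:108783719-108783747, minus strand: taacttagaggCTTTGATcttcaaacttt
Axin2 +2.73 kb, chr11:108784375-108784403, plus strand: ttactttcttgCTTTGATgttgggtagat
Axin2 +3.94 kb, chr11:108785587-108785615, plus strand: ggctaggaaccCTTTGATctcatgttttg
Axin2 +4.2 kb, chr11:108785850-108785878, minus strand: gagtcattctaCTTTGATgattagcagtg

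At Nkd1, on chromosome 8, 2 matches lay upstream of the start site under the promoter islands of both lists.
Nkd1 -0.78 kb, chr8:91044450-91044478, minus strand: aaccgccggatCTTTGATctttcttagtt
Nkd1 -0.07 kb, chr8:91045159-91045187, plus strand: gtccgcctcgcCTTTGATgggccgctgcc

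At Tcf7l2, on chromosome 19, 5 islands were called in WT with no overlapping island in dKO, and they held 7 matches, all intronic.
Tcf7l2 +106.94 kb, chr19:55923227-55923255, minus strand: gtcaatgaactCTTTGTTttttttttttt
Tcf7l2 +106.96 kb, chr19:55923244-55923272, plus strand: gagttcattgaCTTTGATaaccagctgtt
Tcf7l2 +107.78 kb, chr19:55924066-55924094, minus strand: taatactgagaCTTTGATcagctttttat
Tcf7l2 +153.50 kb, chr19:55969786-55969814, plus strand: aaaatatcaggCTTTGTTcttttgattga
Tcf7l2 +153.99 kb, chr19:55970275-55970303, minus strand: ctctctttaacCTTTGTTattgttgtttt
Tcf7l2 +163.87 kb, chr19:55980154-55980182, plus strand: gacgagaagtcCTTTGTTgtaaggggtcc
Tcf7l2 +185.90 kb, chr19:56002189-56002217, plus strand: atttgttgtttCTTTGTTctgatacaagc

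At Tle4, 3 matches fell within 240 bases of intron that the WT promoter island covered and the dKO promoter island did not reach.
Tle4 +2.54 to +2.78 kb, chr19:14669698-14669937, minus strand: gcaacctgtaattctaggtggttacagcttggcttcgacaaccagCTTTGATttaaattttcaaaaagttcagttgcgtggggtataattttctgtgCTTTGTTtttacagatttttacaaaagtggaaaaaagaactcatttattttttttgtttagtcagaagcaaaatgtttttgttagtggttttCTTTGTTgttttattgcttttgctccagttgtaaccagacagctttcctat

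Such letters are common under islands. Over all islands they occurred 0.432 times per kb in WT and 0.423 in dKO, and the members' islands held 229 matches in WT (0.478 per kb) and 224 in dKO (0.477 per kb). Of 300-base tiles cut through all WT islands, 11.8% held at least 1 match and 0.0439% held 3 or more. The printed Tle4 stretch was placed around its matches, and the tiles were not. The tile shares are therefore no background for that stretch, and whether its matches are unusually close was not tested. A match describes letters only, and no binding was measured here. In the RefSeq promoters of GRCm38.p6 (250 bases before to 50 after a start site), which cover 8 of the 10 members with 11 entries, 1 entry held a match, the downstream promoter of Tcf7l2, against 9.33% of 32851 promoters.

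The lists held 65563 islands with 82668007 counts in WT and 82213 islands with 57665047 counts in dKO. Counts were divided by the list's total and are given as CPM, the counts per 1000000 of that total, and each gene's window ran from 50 kb upstream of its start site to its end. A fold of 1.5 was used to describe a difference as higher or lower, and 95% intervals cover counting error only. Fewer cells with the mark and less of the mark per cell cannot be told apart in such pools. The promoters of all 8 CD8 T cell markers carried an island in both lists. The levels of their whole windows summed to 2698 CPM in WT and 2261 CPM in dKO (single windows 165 to 754 and 160 to 367). In these sums and those below, an island that touches several windows counts in each, and neighbouring genes were not separated. Markers of other cells also had promoter islands, 4 of 5 B cell markers (summed 618 and 720 CPM), 4 of 4 myeloid markers (459 and 456), 2 of 2 CD4 T cell markers (260 and 325), 2 of 3 erythroid markers (131 and 146) and 1 of 3 NK cell markers (200.1 and 231), in both lists alike, with no promoter island at Ebf1, Hba-a1, Ncr1 or Klrk1. Their part in the members' values was not tested. The Y chromosome held 1 island with 98 counts in WT and 17 islands with 19633 counts in dKO, and a difference in the sexes pooled cannot be told apart from genotype here. The 10 members are autosomal. At the targeted genes themselves, the Tcf7 window held 761 CPM in WT and 855 CPM in dKO and the Lef1 window 768 and 626 CPM; the deposited sums do not resolve the deleted exons and so do not check the deletion.

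**Figure D1:**
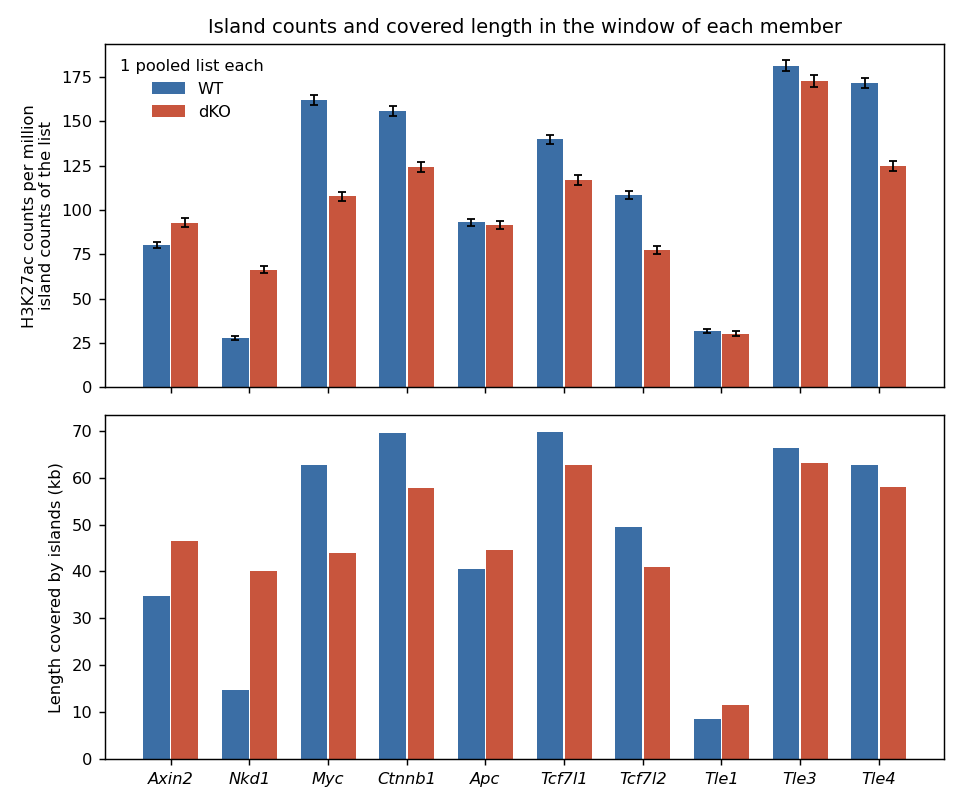
Upper panel, H3K27ac counts (CPM) in the window of each member, from 1 pooled list per genotype, with 95% intervals that cover counting error only; lower panel, the length in kb covered by those islands. Nkd1 stands out as higher in dKO, at 66.4 against 27.9 CPM, and its covered length moves with it, from 14.6 to 40.0 kb.

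Across the 10 members the levels ran from 27.9 CPM (Nkd1) to 181 CPM (Tle3) in WT and from 30.3 CPM (Tle1) to 173 CPM (Tle3) in dKO. By counts, 1 member was at least 1.5-fold higher in dKO (Nkd1) and 1 at least 1.5-fold lower (Myc), where 11.5% of 16487 genes with islands in both lists were higher and 11.5% were lower. The members' median log2 ratio of dKO to WT was -0.17, beside -0.03 over all those genes. Counts also rise with the length that the islands cover, so the same windows were read as counts per covered kb, where 0 members were higher and 0 lower, against 0.425% and 9.28% of genes. On that scale all 10 ratios were below 0, with a median of -0.18 beside -0.16 over all genes. The scaling over a longer covered length in dKO itself moves such ratios below 0. The shares of members past the fold are near those of all genes on both scales.

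**Figure D2:**
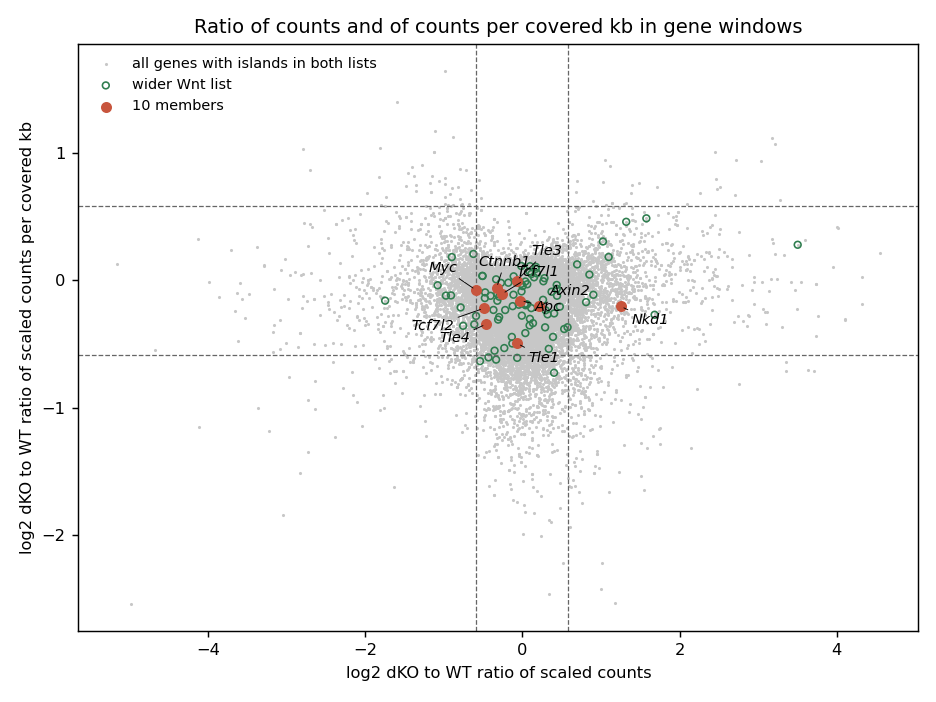
Each point is a gene with islands in both lists, placed by its log2 dKO to WT ratio of scaled counts (x) and of scaled counts per covered kb (y); grey, all 16487 genes; green circles, the wider Wnt list; red, the 10 members; dashed lines, a fold of 1.5. Nkd1 and Myc lie past the fold on the x axis, and no member lies past it on the y axis.

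Axin2 (ENSMUSG00000000142, chr11:108781663-108812097 in mm9, plus strand) encodes a scaffold of the destruction complex and is a standard readout of Wnt signalling. Its window held 6638 counts in 4 islands in WT, or 80.3 CPM (78.4 to 82.2), and 5358 counts in 6 islands in dKO, or 92.9 CPM (90.5 to 95.4). The log2 ratio was 0.21 (0.16 to 0.26), short of the 1.5-fold mark. The island over the start of the gene differed more in length than in counts. In WT a 6.0 kb island from -0.46 to +5.54 kb held 2370 counts, or 4.78 CPM per kb, and it covers the 6 matches printed above. In dKO a 15.0 kb island from -4.06 to +10.94 kb held 2070 counts, or 2.39 CPM per kb. A wider island thus covered the same promoter and the same 6 matches. By counts the 2 islands held 28.7 CPM in WT and 35.9 CPM in dKO, a log2 ratio of 0.32. The lists give no profile within an island. The dKO list also had an island of 329 counts at +16.14 to +20.34 kb, inside the gene, with no WT island over it. The upstream stretch from -32.5 to -5.06 kb held 3763 and 2814 counts, a log2 ratio of 0.10. At the far edge, from -38.9 to -34.1 kb, 505 counts in WT stood against 145 in dKO, in islands of 4.8 and 1.6 kb.

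Nkd1 (ENSMUSG00000031661, chr8:91045243-91118786, plus strand) encodes an inhibitor that binds Dishevelled and is another feedback gene of the pathway. It had 2307 counts in 3 islands in WT and 3826 counts in 7 islands in dKO, or 27.9 CPM (26.8 to 29.1) and 66.4 CPM (64.3 to 68.5), with a log2 ratio of 1.249 (1.17 to 1.32). Per covered kb the ratio was -0.20, since the islands took up 14.6 kb in WT and 40.0 kb in dKO. The promoter island, which holds the 2 matches printed above, covered 3.0 kb with 661 counts in WT and 4.4 kb with 491 in dKO, 7.996 and 8.515 CPM. Inside the gene, a merged region at +7.16 to +15.96 kb reached within 1 kb of a further annotated start site. It held 646 counts on 5.0 kb in WT and 718 on 8.6 kb in dKO, or 7.81 and 12.5 CPM. The log2 ratio there was 0.67 by counts and -0.11 per covered kb. The island at +43.8 to +50.6 kb was alike in the lists, with 1000 counts on 6.6 kb and 708 on 6.8 kb, or 12.1 and 12.3 CPM. Most of the difference lay in 4 islands called in dKO alone, which held 49.9% of its dKO counts. They lay at -42.6 to -40.4 kb (174 counts), +51.2 to +55.4 kb (398 counts), +58.8 to +69.2 kb (997 counts) and +70.2 to +73.6 kb (340 counts). The last 3 of these fill the 3′ end of the gene body and overlap exons. A list holds only stretches that passed the caller, so the lack of a WT island there is not a count of 0. With the window widened to 50 kb on both sides of the gene, the log2 ratio was 0.29, under the 1.5-fold mark.

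Myc (ENSMUSG00000022346, chr15:61816946-61821929, plus strand) encodes a transcription factor that drives cell growth. Its window held 13410 counts in 9 islands in WT, 162 CPM (159 to 165), and 6214 counts in 8 islands in dKO, 108 CPM (105 to 111), with a log2 ratio of -0.59 (-0.63 to -0.55), at the edge of the 1.5-fold mark. Most of the counts sat in an island over the gene. In WT it was 33.4 kb long, from -13.3 to +20.1 kb, with 9739 counts, and in dKO 19.4 kb long, from -13.3 to +6.05 kb, with 4000 counts. The depths of these 2 islands of unlike length were 3.53 and 3.58 CPM per kb. The dKO list went on beyond the window with 2 more islands under the same WT island. Over that whole region the counts were 9739 and 5514, a log2 ratio of -0.30 (-0.35 to -0.25). Per covered kb the region had 3.53 CPM in WT and 2.97 in dKO, a log2 ratio of -0.25. Counts prorated by the part of each island inside the window gave -0.13, and 50 kb on both sides of the gene gave -0.02. The lower value at Myc therefore depends on where the islands were cut and on the window.

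**Figure D3:**
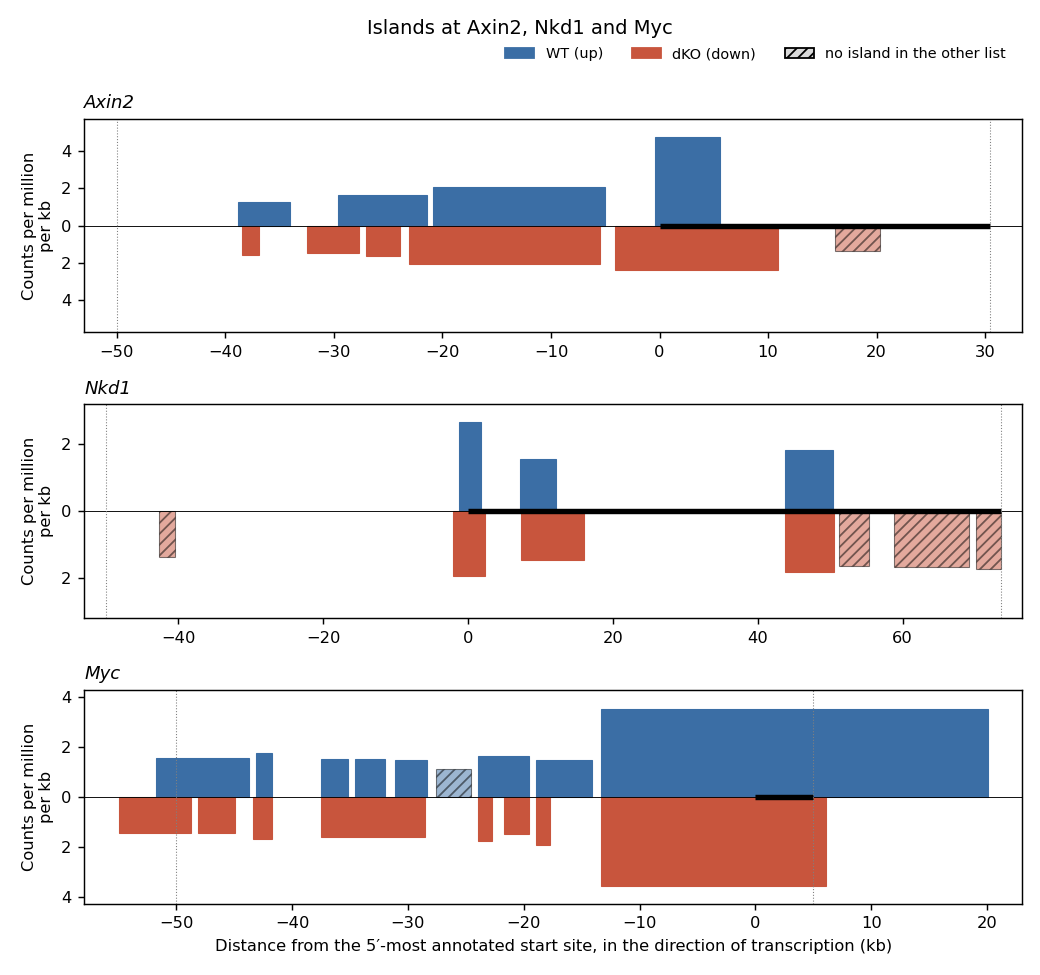
Islands at Axin2, Nkd1 and Myc, drawn against the distance in kb from the 5′-most annotated start site, with WT upward and dKO downward; bar width is the island's length, bar height its CPM per kb, hatching an island with none of the other list over it, the black line the gene and dotted lines the window. The Axin2 promoter island is 6.0 kb wide in WT and 15.0 kb in dKO, and 4 hatched dKO islands stand at Nkd1.

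Ctnnb1 (ENSMUSG00000006932, chr9:120838334-120869625, plus strand), the gene of β-catenin, had 156 CPM in WT (12883 counts in 8 islands) and 124 CPM in dKO (7159 counts in 11 islands), a log2 ratio of -0.33 (-0.37 to -0.29). Per covered kb the ratio was -0.06, and with 50 kb on both sides of the gene it was -0.64 by counts. Its promoter island was exactly 17.0 kb long in both lists, from +3.07 to +20.07 kb of the outermost annotated start, and held 5130 counts in WT and 2872 in dKO, a log2 ratio of -0.32. The gene body of Ulk4 also touches this window, and its part in the counts was not separated. All 8 of its merged regions (islands of both lists joined where they overlap) held islands of both lists.

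Apc (ENSMUSG00000005871, chr18:34380578-34481843, plus strand) encodes the large scaffold that presents β-catenin for degradation. Its levels were 93.0 CPM (91.0 to 95.1) in WT and 91.5 CPM (89.1 to 94.0) in dKO, with a log2 ratio of -0.02 (-0.07 to 0.03), within counting error of 0. With islands of at least 5 CPM alone it was -0.66. The signal was cut into 8 islands in WT and 16 in dKO. At its promoter an 8.6 kb island with 3743 counts in WT stood against a 7.4 kb island with 1928 counts in dKO, 5.26 and 4.52 CPM per kb. Of the dKO islands 4 had no WT island over them, at -42.8, +36.6, +46.2 and +63.8 kb (left edges), with 763 counts together. The 3 intronic regions from +9.02 to +13.8, +14.4 to +20.4 and +28.8 to +35.4 kb had log2 ratios of -0.79, -0.70 and -0.87 by counts and of 0.09, 0.12 and 0.01 per covered kb.

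The paralogs Tcf7l1 and Tcf7l2 encode DNA-binding proteins that read the same letters as Tcf1 and Lef1. Tcf7l1 (ENSMUSG00000055799, chr6:72576372-72739248, minus strand), known best as a repressor, had 140 CPM (137 to 143) in WT and 117 CPM (114 to 120) in dKO, from 11572 counts in 13 islands and 6740 counts in 15 islands. The log2 ratio was -0.26 (-0.30 to -0.22) by counts and -0.11 per covered kb. Its promoter island was 3.6 kb long in both lists with 925 and 561 counts, 3.11 and 2.70 CPM per kb, a log2 ratio of -0.20. The strongest island, of 3264 counts in WT and 1518 in dKO, lay at the 3′ end, +147 to +163 kb, where the annotation also has the start of a short transcript. A WT island at +95.8 to +101.6 kb (687 counts) had no dKO partner, and dKO islands at +55.6 to +58.0 kb (205 counts) and +107.0 to +108.6 kb (147 counts) had no WT partner. Gm15401 lies in the same window.

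Tcf7l2 (ENSMUSG00000024985, chr19:55816300-56008144, plus strand), the main Tcf protein of the gut, had 109 CPM (106 to 111) in WT and 77.5 CPM (75.2 to 79.8) in dKO, from 8989 counts in 12 islands and 4468 counts in 10 islands. The log2 ratio was -0.49 (-0.54 to -0.44) by counts and -0.22 per covered kb. The promoter island was 4.6 kb long with 1511 counts in WT and 4.8 kb with 926 counts in dKO, 18.3 and 16.1 CPM, so the promoter took a small part in the difference. The 5′ part of the gene went the other way at places, with 248 counts in WT and 597 in dKO at +48.5 to +54.3 kb, a log2 ratio of 1.79 from islands of 1.6 and 5.8 kb. The difference lay mostly in the 3′ part. At +170.5 to +180.7 kb a 9.6 kb WT island of 2813 counts stood over 2 dKO islands of 788 counts together, a log2 ratio of -1.32 by counts and -0.49 per covered kb. Around it lay the 5 islands called in WT alone, whose 7 matches are printed above, at +104.5 to +107.9 kb (381 counts), +153.3 to +155.1 kb (260 counts), +159.7 to +165.3 kb (685 counts), +181.7 to +182.7 kb (146 counts) and +185.7 to +188.7 kb (361 counts). They made up 20.4% of the WT counts of this gene. The one at +153.3 kb covers the start of a shorter annotated transcript. Both paralogs were thus lower in the dKO list and neither reached the 1.5-fold mark in this window. With the gene body only, or with 10 kb upstream, Tcf7l2 passed it at -0.597. With counts prorated by the part of each island inside the window, Tcf7l2 was at -0.35. With only the islands lying mainly inside the window, it was at -0.28. A WT island of 1209 counts, from -55.3 to -47.5 kb, crosses the upstream edge and was counted whole. Over the merged region there, the counts were 1209 in WT and 1361 in dKO, a log2 ratio of 0.69. The size of the Tcf7l2 difference therefore depends on the window.

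Tle4 (ENSMUSG00000024642, chr19:14522562-14672473, minus strand) encodes a Groucho-type corepressor that Tcf proteins recruit. Its window held 14166 counts in 21 islands in WT, 171 CPM (169 to 174), and 7187 counts in 20 islands in dKO, 125 CPM (122 to 127), with a log2 ratio of -0.46 (-0.50 to -0.42). Per covered kb it was -0.34, and with islands of at least 5 CPM alone it was -0.60 by counts. The promoter island had the densest signal of all members in either list, 5.6 kb long in WT with 4929 counts (10.6 CPM per kb) and 5.2 kb long in dKO with 1960 (6.54 CPM per kb). The log2 ratio there was -0.81 (-0.89 to -0.74) by counts and -0.70 per covered kb. The island was also displaced, from -1.33 to +4.27 kb in WT and from -2.73 to +2.47 kb in dKO, so the 240 intronic bases printed above were under the WT island only. The next stretch of intron, +7.47 to +16.5 kb, went from 2060 counts on 7.4 kb to 897 on 7.6 kb, with a log2 ratio of -0.68 by counts and -0.72 per covered kb. Further WT islands without a dKO partner numbered 6, with 1228 counts, and dKO islands without a WT partner numbered 3, with 638 counts, all at +109 kb and beyond.

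Tle1 and Tle3, the other corepressors in the group, were closer to parity by counts. Tle1 (ENSMUSG00000008305, chr4:71778176-71861953, minus strand) had 31.6 CPM (30.5 to 32.9) in WT and 30.3 CPM (28.9 to 31.7) in dKO, a log2 ratio of -0.06 (-0.15 to 0.02), within counting error of 0. Per covered kb the ratio was -0.50, the lowest of the 10 members. Its promoter island held 84.5% of the WT counts, 2211 over 5.0 kb, and 67.6% of the dKO counts, 1180 over 4.6 kb, a log2 ratio of -0.39 for that island. Tle3 (ENSMUSG00000032280, chr9:61220190-61266297, plus strand) had 181 CPM (179 to 184) in WT and 173 CPM (169 to 176) in dKO, a log2 ratio of -0.07 (-0.11 to -0.04). Per covered kb it was -0.002. Its promoter island was 29.2 kb long with 9409 counts in WT and 35.4 kb long with 6825 counts in dKO, a log2 ratio of 0.06. A WT island of 683 counts at -14.2 to -8.79 kb had no dKO partner, and Gm10655 lies in this window.

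**Figure D4:**
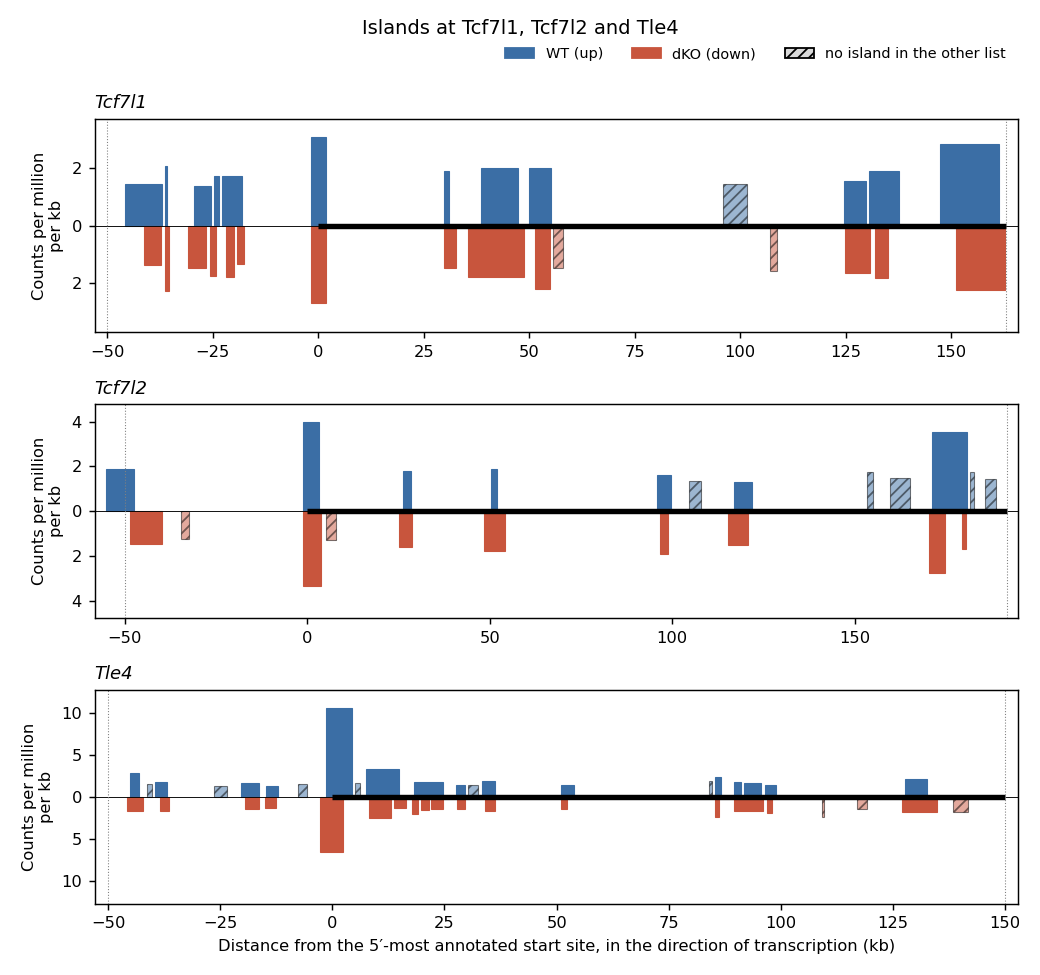
Islands at Tcf7l1, Tcf7l2 and Tle4 against the distance in kb from the 5′-most annotated start site, WT upward and dKO downward; bar width is the island's length, bar height its CPM per kb, hatching an island with none of the other list over it. The 5 hatched WT islands of Tcf7l2 lie beyond +104 kb, and the Tle4 promoter island stands at 10.6 CPM per kb in WT and 6.54 in dKO.

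Promoters were then set side by side. All 10 members had an island within 1 kb of an annotated start site in both lists, as did 62.9% of all protein-coding genes in WT and 63.3% in dKO. In the region over each member's outermost active start, 1 of 10 was at least 1.5-fold lower by counts (Tle4) and 0 were higher, against 12.2% and 3.7% of 10883 such regions. Per covered kb, 2 were lower (Axin2 at -0.998 and Tle4 at -0.70) and 0 higher, against 13.1% and 0.606%. By counts the Axin2 region was at 0.32. The remaining 8 ratios per covered kb ran from -0.46 (Nkd1) to -0.20 (Tcf7l1), and the members' median was -0.26 beside -0.20 over all promoter regions. Over all promoter regions 23.1% had a ratio per covered kb above 0, so ratios below 0 were common and not particular to these genes. The scaling to list totals enters all of these ratios, and its part in them was not tested.

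**Figure D5:**
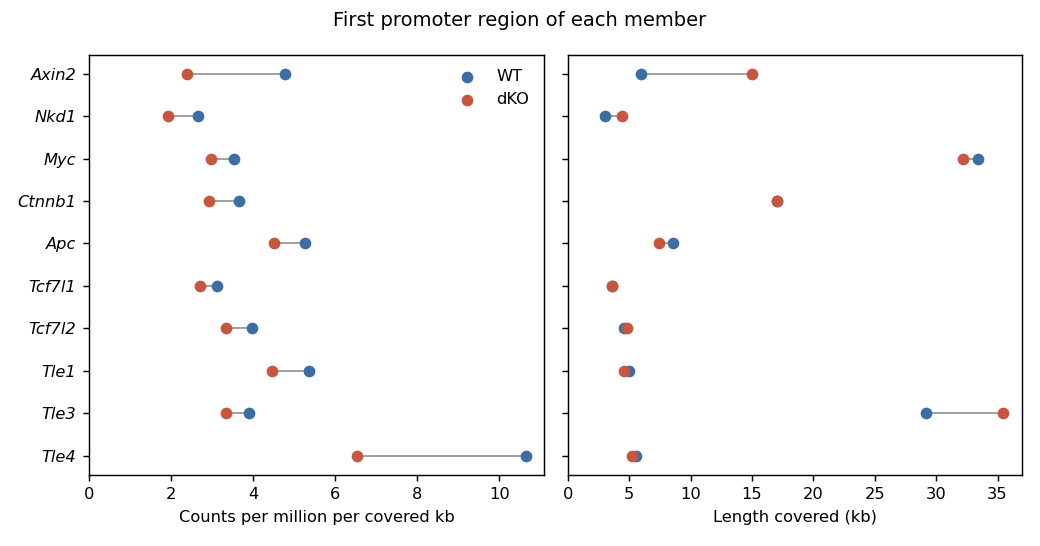
The promoter region nearest the 5′ end of each member: left, H3K27ac CPM per covered kb; right, length covered in kb; blue, WT; red, dKO, 1 pooled value each. All 10 members sit lower in dKO on the left, Tle4 by the most in absolute terms (10.6 to 6.54), and Axin2 is the one with the widest change in covered length, 6.0 kb in WT and 15.0 kb in dKO.

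Joined where they overlapped, the islands of the 10 windows formed 97 regions, of which 66 held islands of both lists. By counts 7 of the 66 were at least 1.5-fold higher and 15 lower, against 11.1% and 14.6% of 45322 such regions in the genome. Per covered kb 0 were higher and 4 lower, against 1.17% and 4.51%, and the 4 were the Axin2 promoter, the Tle4 promoter, the Tle4 intronic stretch next to it and a Tle4 region at -45.7 to -42.1 kb (2.0 kb and 469 counts in WT, 3.6 kb and 339 counts in dKO). Where both lists drew 1 island of like length (the shorter at least 80% of the longer), 19 regions could be compared with little room for differences in length. Of these 1 was lower (the Tle4 promoter) and 0 higher, against 3.61% and 0.335% of 15217, and their median log2 ratio per covered kb was -0.18 beside -0.04. Several of the 19 lay within 1 kb of an annotated start, and the median over all promoter regions was -0.20. The -0.04 is not matched for this.

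Islands of a single list made up 14 of the members' 86 WT islands (16.3%) and 17 of their 101 dKO islands (16.8%). Over all islands these shares were 14.9% in WT and 26.2% in dKO. Such islands lay mostly away from promoters, with 1 in each list within 1 kb of an annotated start. Matches to the Tcf/Lef letters under WT islands but not dKO islands numbered 59 and those under dKO but not WT islands 54, with 170 under both. Tcf7l2 had 12 of the first kind and 5 of the second, and Nkd1 had 0 and 11. Islands called in 1 list alone held 15 matches in WT, 7 of them at Tcf7l2, and 21 in dKO, 7 of them at Nkd1.

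A wider list of 124 Wnt pathway genes, which includes the members, was read in the same windows. Islands of both lists were present at 98 genes, of WT alone at 5 and of dKO alone at 3, and at 18 there were none. By counts 11 of the 98 were at least 1.5-fold higher and 11 lower, 11.2% each, close to the share of all genes. Per covered kb 0 were higher and 5 lower (5.10%), against 9.28% of all genes lower. Their median log2 ratio was -0.01. Among the 12 nuclear effectors and coactivators, which include Tcf7 and Lef1, 0 passed the fold either way. The destruction complex and its ligase and kinase partners had 2 of 13 higher and 4 lower, the antagonists 3 of 14 higher and 2 lower, and the ligands and their secretion factors 3 of 17 higher and 0 lower. Of the 10 receptors 0 were higher and 1 lower, of the 11 targets, Myc included, 0 and 2, of the 10 transducers 1 and 2, and of the 11 corepressors 2 and 0. Neighbouring genes can share islands, so these are not separate calls. Among the higher ligands, the window of Wnt9a (3215 dKO counts) lies inside that of Wnt3a (3414 dKO counts). The 2 higher corepressors, Aes and Tle2, are neighbours with overlapping windows.

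The genes at the ends of the wider list were chosen by their ratio and are given as values. Lowest were Dact1, a Dishevelled antagonist (WT 495 and dKO 103 counts, ratio -1.75 on the log2 scale), the secreted Dkk3 (8292 and 2742, -1.08), the scaffold Axin1 (25464 and 9053, -0.97) and the kinase Csnk1g3 (9848 and 3663, -0.91). Highest were the ligand Wnt9a (407 and 3215, 3.501), the membrane inhibitor Apcdd1 (1008 and 2256, 1.68), the ligase adaptor Fbxw11 (12992 and 27037, 1.58) and the corepressor Tle2 (13208 and 23013, 1.32). Long islands that run out of the window weigh on some of these. With counts prorated to the part inside it, Axin1 went to -0.16, Fbxw11 to 0.07, Tle2 to 0.53, Dkk3 to -0.72 and Wnt9a to 2.202, while Dact1, Csnk1g3 and Apcdd1 stayed as given. Wnt9a had 1 island in each list, of 3.6 kb in WT and 33.6 kb in dKO. Of the genes with islands in 1 list, Sfrp2, a secreted Wnt antagonist, had 1380 counts in 3 WT islands, the corepressor Ctbp2 had 1176 counts in 2 dKO islands, and the ligand Wnt9b had 579 counts in 1 WT island that it shares with its neighbour Wnt3. Other protein-coding genes also lay under some of these islands. They were Fgfr2 at Ctbp2, Mical2 at Dkk3, and Efcab9 and Stk10 at Fbxw11. At Tle2 they were Aes, Gna11, Gna15, Ncln, S1pr4 and Tle6. At Axin1 they were Arhgdig, Decr2, Itfg3, Mrpl28, Nme4, Pdia2, Rgs11 and Tmem8. Their part in the counts was not separated.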

How the data were processed

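H3K27ac ChIP-seq was made from sorted naïve splenic CD8+ T cells (4 WT and 3 dKO libraries, with 1 input each). Per the submitters' processing notes the authors used FastQC, Bowtie2 2.2.5 and SICER 1.1 on mm9, keeping reads with a mapping quality above 10, with windows of 200 bp, gaps of 400 bp and an FDR of 0.01. Replicates were pooled before calling, and handling of duplicates is not given in the sources used here. The deposited values are read counts per island, 1 list per genotype (82668007 and 57665047 counts in all). Genes came from GENCODE vM1 (NCBIM37). Counts of every island touching a window (body to 50 kb upstream) were summed, divided by the list total, and compared with Python 3 scripts that were tested on simulated data; a fold of 1.5 described a difference. Intervals are 95% Wilson intervals turned into ratios. Members, the wider list and the alternatives were chosen with earlier results of these data known. The first promoter region (the 5′-most merged region within 1 kb of a start), the prorated values of named genes, regions of like length and the printed sequences were chosen after the values were seen. Named genes were the 10 members, Tcf7 and Lef1, and from the wider list the 4 lowest and 4 highest ratios with at least 200 counts and the 3 strongest genes of 1 list; Wnt3 ties with Wnt9b. No p-value was computed, since pooled lists leave no replicates. RefSeq promoters for Apc and Myc were not used here.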

Additional observations from a re-analysis of the deposited data

How the results depend on the processing

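Pooling sets the main limit: 1 value per genotype gives no error between mice, so neither leaving out a replicate nor a test could be run. No paired analysis was possible because the deposited lists pool the replicates of each genotype. The dKO list had fewer counts and more islands, and its part in the differences of length was not tested. The number of members at least 1.5-fold lower by counts was 1. It was 2 with islands of at least 5 CPM (Apc at -0.66 and Tle4 at -0.60, and no longer Myc at -0.58), 2 with the gene body only and with 10 kb upstream (Myc at -0.76 and Tcf7l2 at -0.60), and 1 with 50 kb on both sides (Ctnnb1 at -0.64 in place of Myc). It was 0 with prorated counts, with scaling to the totals of shared islands, with the median ratio of all genes set to 0 and by counts per covered kb, 4 where WT need only be 25% above dKO and 0 at a fold of 2. The number higher was 1 and became 0 with 50 kb on both sides and by counts per covered kb, where the value of Nkd1 turned from 1.249 to -0.20. Per covered kb, the number lower was 0 and became 1 with the gene body only and 2 by that looser mark. On the wider list, 11 lower and 11 higher became 5 and 0 per covered kb. Over 10 alternatives the log2 ratios of Ctnnb1, Myc, Tcf7l1, Tcf7l2 and Tle4 stayed below 0, that of Myc between -0.76 and -0.02, while those of Apc (-0.66 to 0.05), Axin2 (-0.20 to 0.54), Nkd1, Tle1 and Tle3 changed sign in at least 1. Scaling to shared islands raised every log2 ratio by 0.07. Members with promoter islands stayed at 10 in both lists with 2.5 kb around the start.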

Other observations

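Myc is known to be driven in blood cells by enhancers far downstream, which the gene window does not reach. The stretches read here end 1000 kb downstream, so enhancers further out were not examined, and none was located within them. Here counts and lengths were prorated to the part of each island inside a stretch, since long islands cross its edges. From the end of the gene to 1000 kb downstream the lists held 83487 counts in WT (1009.9 CPM) and 59842 counts in dKO (1038 CPM), a log2 ratio of 0.04 (0.02 to 0.05). This flank held several times the counts of the gene's own window, but it is also far longer. Per covered kb the flank had 2.21 CPM in WT and 2.18 in dKO. The window, with islands counted whole, had 2.58 and 2.45. Within the flank the first 50 kb had 9890 counts in WT and 4952 in dKO, a log2 ratio of -0.48 by counts and -0.29 per covered kb. The stretch from 50 to 500 kb, which held most of the counts, had 760 and 762 CPM, a log2 ratio of 0.003. That from 500 to 1000 kb had 130 and 190 CPM, a log2 ratio of 0.55 by counts and -0.04 per covered kb, with 73.0 kb covered in WT and 110 kb in dKO. With whole islands counted, the window from 50 kb upstream to 1000 kb downstream of Myc had a log2 ratio of 0.03. These windows were chosen after the values at Myc were seen, and other genes' elements in the flank were not separated.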
